A study of Mus musculus with 6 samples.

Results

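The genes described here are 45 mouse genes of DNA repair and of the DNA damage checkpoint, taken as a list of symbols and matched through their Entrez Gene IDs. All 45 were found among the 24532 gene IDs of the tables, and all 45 were among the 11337 genes that passed the filter on low values. That filter asked for a TPM (a transcript's share of a library, scaled to a fixed total) reaching 1 in 2 or more libraries. Of the members, 10 stayed under 1 TPM in both MAR1INT libraries, so they passed through the other populations and their test is not independent of the filter. They were Rad51c, Xrcc2, Xrcc3, Fancd2, Fanci, Exo1, Eme1, Ung, Xrcc5 and Chek1. All of them are counted below as lower in MAR1INT than in BaP. The list was split, from textbook knowledge of which repair genes are transcribed with S phase, into 21 replication-linked and 24 constitutive members. Earlier results of these data were known when the split was made, so the classes are not independent of the values. The class of Chek2, Fancm and Palb2, counted as constitutive, is open to doubt.

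The study measured RNA in basophil-lineage cells sorted from the bone marrow of C57BL/6J mice, with 2 biological duplicates in each of 3 populations. MAR1INT and MAR1HI cells both lacked lineage markers, CD34 and c-Kit on their surface and carried CD200R3; they were separated by an intermediate or a high signal of MAR1, an antibody to the IgE receptor alpha chain. BaP, which the labels call a basophil precursor, was likewise sorted without lineage markers or c-Kit, but with CD34 and with MAR1 binding. No agent or mutation is named for any population, and the ages and the number of animals behind a library are not given in the sources used here.

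DNA repair is a set of parallel pathways. Homologous recombination copies the sister chromatid to mend a broken chromosome and depends on replication, whereas end joining ligates broken ends at any stage of the cell cycle. The Fanconi anaemia pathway unhooks crosslinks that block replication forks, mismatch repair corrects polymerase errors, and base excision repair removes damaged bases. The kinase ATR senses stalled forks and signals through CHEK1, and the kinase ATM senses broken ends and signals through CHEK2. Many genes of recombination, of the Fanconi pathway and of the ATR branch are transcribed by E2F factors as cells enter S phase, so their RNA is known to be abundant in cycling marrow progenitors and scarce in resting granulocytes.

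Aligned sequence, inferred per library, came to 4.82 and 4.75 gigabases for MAR1INT, 5.10 and 5.28 for MAR1HI and 4.90 and 4.83 for BaP. Genes reaching 1 TPM numbered 9604 and 9705 in MAR1INT, 10710 and 11038 in MAR1HI and 10983 and 11544 in BaP. MAR1INT was thus lowest on both measures. The part of this in the members listed at 0 or under 1 TPM there was not tested. Basophil genes were high in all 6 libraries: their 11 members summed to 14657 and 11981 TPM in MAR1INT, 22183 and 18598 in MAR1HI and 17242 and 22116 in BaP, and none was listed at 0 in any population. Markers of some other marrow cells moved with the populations. The 9 eosinophil markers summed to 213 and 349 TPM in MAR1INT, 109 and 158 in MAR1HI and 2166 and 1152 in BaP, and 4 of them (Epx, Prg3, Ear6 and Il5ra) were listed at 0 in both MAR1INT libraries. The 10 dendritic cell markers summed to 16.1 and 25.6 TPM in MAR1INT, 74.1 and 61.4 in MAR1HI and 990.4 and 358 in BaP, with Flt3, Zbtb46, Clec9a and Xcr1 at 0 in MAR1INT. The 13 neutrophil markers summed to 3930 and 3308 TPM in MAR1INT, 4922 and 3780 in MAR1HI and 6197 and 11216 in BaP, and none of them was at 0 in a population. The 11 monocyte and macrophage markers summed to 352 and 405 TPM in MAR1INT, 330.1 and 361 in MAR1HI and 558 and 569 in BaP, with Spic at 0 in MAR1INT. The 9 T and NK cell markers summed to 34.1 and 51.5 TPM in MAR1INT, 197 and 199 in MAR1HI and 375 and 387 in BaP, with 6 of them at 0 in MAR1INT. Against BaP, MAR1INT had 5 eosinophil markers of 8 tested lower and 2 higher, and lower calls in 6 of 7 dendritic cell, 7 of 13 neutrophil, 8 of 11 monocyte and macrophage and 3 of 3 T and NK cell markers. Lower calls were also seen in 2 of 10 erythroid, 0 of 4 B and plasma cell, 2 of 4 megakaryocyte and platelet and 1 of 2 mast cell markers. Of all tested genes 20.4% were called lower in this contrast. In MAR1HI relative to BaP no repair member was called, and 0.662% of all tested genes were called lower. There, 4 of 8 eosinophil, 4 of 7 dendritic cell, 2 of 13 neutrophil, 5 of 11 monocyte and macrophage and 1 of 2 mast cell markers were lower. Of the eosinophil markers, 1 was higher. The part of these cells in the results on repair genes was not tested.

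Repair genes were low in MAR1INT and at similar levels in MAR1HI and BaP. Of the 45 members, 32 fell in MAR1INT relative to BaP and 0 rose (limma on log2(TPM + 1), Benjamini-Hochberg adjusted p under 0.05), where 20.4% of all tested genes were called lower and 11.1% higher. Against MAR1HI, 28 fell in MAR1INT and 0 rose, where 14.5% of all tested genes were called lower and 2.29% higher. Between MAR1HI and BaP 0 of 45 were called by limma, where 2.49% of all tested genes were called, 0.662% lower and 1.83% higher. An unadjusted limma p under 0.05 was seen there in 3 members, and in 1980 of the 11337 tested genes. The median member changed by -2.20 (log2) in MAR1INT relative to BaP, -1.94 relative to MAR1HI and 0.01 in MAR1HI relative to BaP. The median of all tested genes changed by -0.16, -0.36 and 0.24 in the same contrasts, so the members' medians were -2.03, -1.58 and -0.23 relative to it. In bulk RNA, fewer cycling cells in a population and less of these transcripts per cell cannot be told apart.

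Of the 32 members called lower against BaP, 25 were also called lower against MAR1HI; these contrasts share the MAR1INT libraries. Another 7 (Atrip, Fancl, Msh6, Parp1, Xrcc3, Xrcc5 and Xrcc6) were called against BaP alone and 3 (Atm, Bard1 and Fancg) against MAR1HI alone, and 10 were called in neither. In the contrast with BaP, 12 members were more than 10-fold lower in mean TPM among those not listed at 0. Among them, Fancd2, Fanci, Exo1, Eme1 and Chek1 passed the filter only through MAR1HI and BaP, so their folds are not independent of it. The share of all tested genes beyond this fold was not computed. Both MAR1INT libraries lay below both BaP libraries for 38 members (39.1% of all tested genes) and above both for 3 (29.7%). They lay below both MAR1HI libraries for 40 members (42.2% of all tested genes) and above both for 0 (12.7%). Without either BaP library fewer members were called lower against BaP, and a smaller share of all tested genes. The replication-linked median against BaP was then -2.88 without replicate 1 and -2.81 without replicate 2, against -2.85 with both libraries. Against MAR1HI the count rested on that population's libraries, with 13 members called without MAR1HI replicate 1 (4.75% of all tested genes) and 3 without MAR1HI replicate 2 (1.86%). The replication-linked median against MAR1HI was then -3.15 and -2.74, against -2.94 with both libraries. Under 15 other settings, those that leave out a library included, these 15 members were called lower against BaP each time: Brca1, Brca2, Palb2, Rad51ap1, Rad54b, Fanca, Fancd2, Fanci, Exo1, Ung, Neil3, Polq, Chek1, Chek2 and Topbp1. The other 17 lost the call or were not tested under at least 1 setting. Of these, Eme1, Xrcc2 and Xrcc5 kept the call wherever they were tested, and the filter at a mean TPM of 5 or more left them out. A further setting, which removed genes listed at 0 in both libraries of a population, removed Ung and is not among the 15. Fancd2, Fanci and Neil3 were called lower against MAR1HI under all 15. Of the members named here as stable, Fancd2, Fanci, Exo1, Ung and Chek1 passed the filter only through MAR1HI and BaP. The share of all tested genes called lower in every setting was not computed, so this stability cannot be set beside that of other genes.

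**Figure D1:**
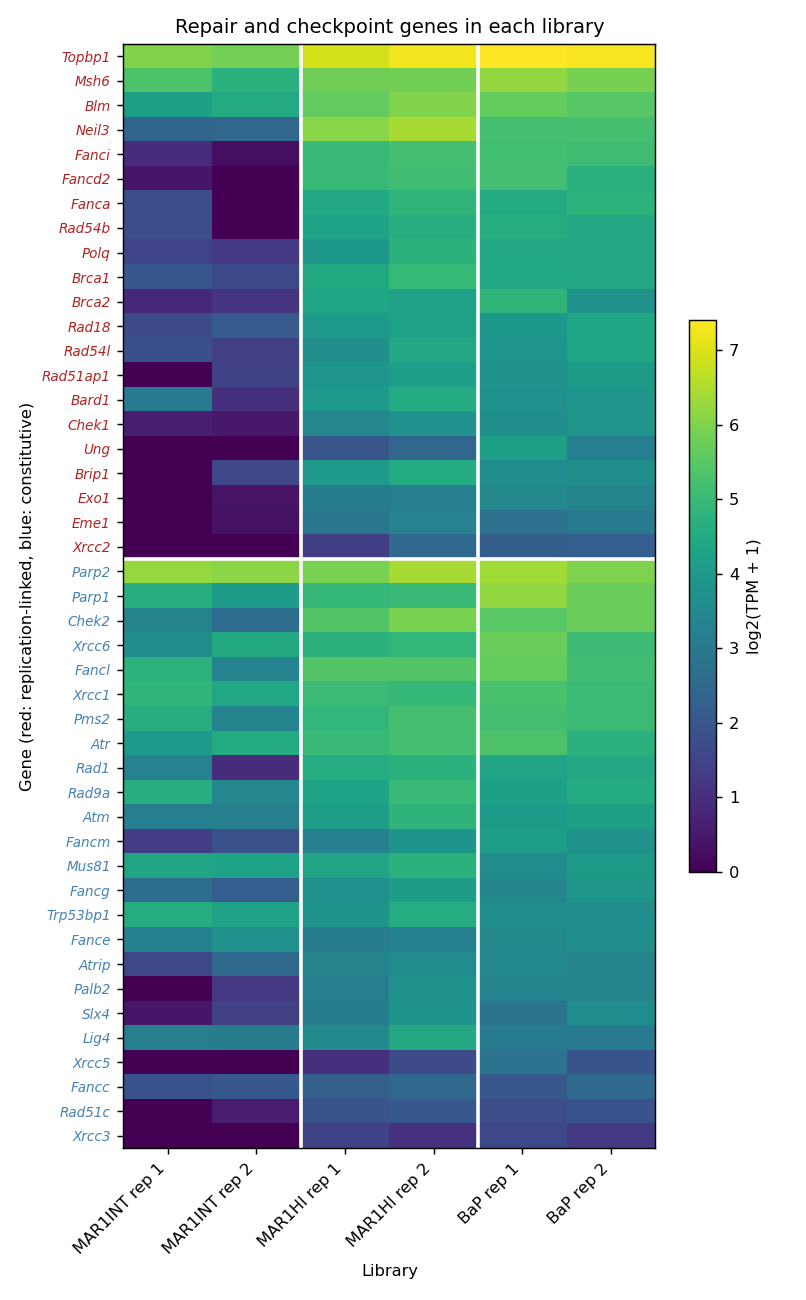
Level of each of the 45 members in each library as log2(TPM + 1), with replication-linked members above the white line and constitutive members below it, each sorted by mean TPM in BaP. Dark cells are low: the MAR1INT columns are darker than the MAR1HI and BaP columns for nearly all replication-linked genes and for fewer constitutive ones.

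In MAR1INT relative to BaP, 20 of 21 replication-linked members fell, with a median log2 change of -2.85, and 12 of 24 constitutive members fell, with a median of -1.27. Relative to MAR1HI, 20 of 21 replication-linked members fell in MAR1INT (median -2.94) and 8 of 24 constitutive members (median -1.17). The difference between the classes itself was not tested, since the members were chosen as a list. The classes, too, were set with earlier results of these data known. Summed over the class, replication-linked members stood at 149 and 125 TPM in MAR1INT, 547 and 693 in MAR1HI and 625 and 579.7 in BaP. Constitutive members summed to 324 and 266 TPM in MAR1INT, 453 and 587 in MAR1HI and 571 and 497 in BaP. Replication-linked members thus made up 31.5% and 31.9% of the members' summed TPM in the MAR1INT libraries, 54.7% and 54.1% in MAR1HI and 52.2% and 53.8% in BaP. The groups did not overlap in that share between MAR1INT and the others. The share rests mostly on the members with the highest TPM. Of the 149 and 125 TPM of replication-linked members in MAR1INT, Topbp1 held 63.6 and 57.4 and Msh6 39.3 and 25.3. The constitutive count moved with the scaling: against BaP 16 fell on the FPKM scale, 7 under quantile scaling and 13 under median-of-ratios scaling, where the replication-linked counts were 21, 20 and 20 and 28.1%, 16.6% and 22.5% of all tested genes fell. Against MAR1HI the constitutive count was 2 of 24 under quantile scaling, where 8.36% of all tested genes fell. It was 1 with no filter on low values (2.75% of all genes), 1 without MAR1HI replicate 1 and 0 without MAR1HI replicate 2, so in these settings the constitutive count lay near or under the share of all genes. With Chek2, Fancm and Palb2 counted as replication-linked instead, a choice made after seeing the data, 23 of 24 replication-linked members fell against BaP and 23 against MAR1HI, and 9 of 21 constitutive members fell against BaP and 5 against MAR1HI (medians -1.16 and -0.85).

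**Figure D2:**
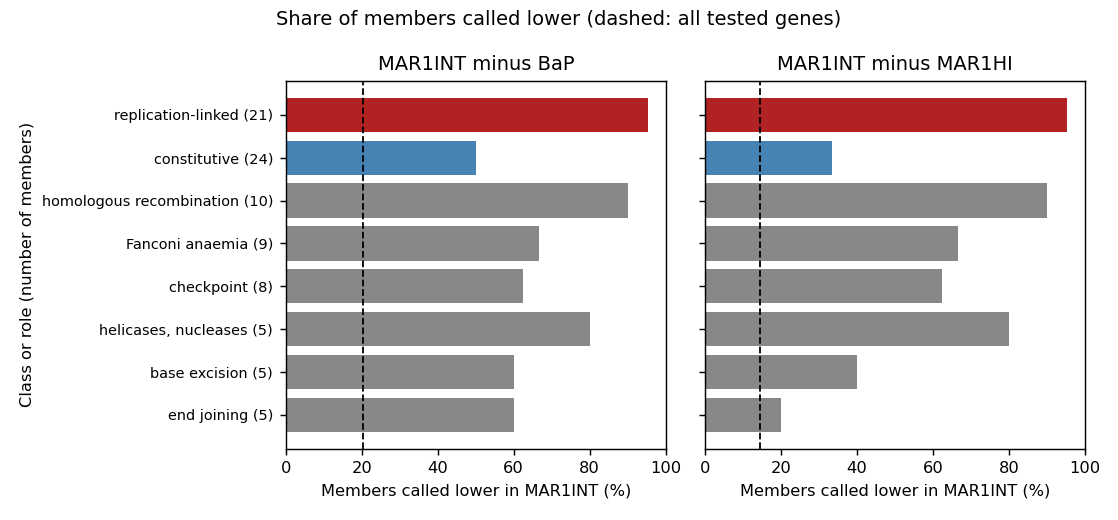
Percentage of members called lower in MAR1INT relative to BaP (left) and to MAR1HI (right), by class and by role, with the number of members in brackets; the dashed line is the percentage of all tested genes called lower, 20.4% and 14.5%. Replication-linked members reached 95.2% in both panels, against 50% and 33.3% of constitutive members.

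The promoters of the members were read next, since E2F factors bind short words of DNA. Windows of 300 bases (250 before and 50 after a gene's start, RefSeq, GRCm38.p6) were found for 40 members. The E2F words searched were the word TTCCCGC, the word TTCGCGC, the word TTGCCGC and the word TTGGCGC, on both strands. At least 1 of them was present in 11 of 17 replication-linked members (64.7%), 8 of 23 constitutive members (34.8%) and 19.8% of 8853 tested genes with a window. The CCAAT box, the word of the factor NF-Y, was present in 7 of 17 replication-linked members (41.2%), 13 of 23 constitutive members (56.5%) and 43.8% of tested genes. The CHR word TTTGAA, a word of genes expressed in G2 and mitosis, was present in 3 replication-linked members (Bard1, Eme1 and Polq), 0 constitutive members and 15.1% of tested genes. The median GC content of the windows was 57.0% in replication-linked members, 60.2% in constitutive members and 60.3% in tested genes. A match is a string of letters and was not measured as a bound site. The replication-linked class was chosen as genes transcribed with S phase, so its share of E2F words is not independent of that choice.

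The windows of the 3 replication-linked and the 2 constitutive members with the highest mean TPM are shown as examples of the letters behind these counts. Capitals mark a match to any of the words, on either strand.
Topbp1, chr9:103305077-103305376, plus strand: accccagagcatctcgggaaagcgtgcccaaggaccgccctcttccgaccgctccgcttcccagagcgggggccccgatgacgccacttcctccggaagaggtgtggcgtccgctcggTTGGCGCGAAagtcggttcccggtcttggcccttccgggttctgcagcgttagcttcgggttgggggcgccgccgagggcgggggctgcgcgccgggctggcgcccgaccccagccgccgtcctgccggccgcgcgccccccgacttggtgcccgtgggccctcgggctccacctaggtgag
Msh6, chr17:87974800-87975099, plus strand: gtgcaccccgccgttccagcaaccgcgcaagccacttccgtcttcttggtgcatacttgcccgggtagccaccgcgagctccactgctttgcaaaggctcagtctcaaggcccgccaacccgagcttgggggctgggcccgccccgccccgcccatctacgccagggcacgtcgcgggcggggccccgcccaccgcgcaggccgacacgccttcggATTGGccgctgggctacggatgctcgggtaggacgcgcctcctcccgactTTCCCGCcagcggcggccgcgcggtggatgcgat
Blm, chr7:80534949-80535248, minus strand: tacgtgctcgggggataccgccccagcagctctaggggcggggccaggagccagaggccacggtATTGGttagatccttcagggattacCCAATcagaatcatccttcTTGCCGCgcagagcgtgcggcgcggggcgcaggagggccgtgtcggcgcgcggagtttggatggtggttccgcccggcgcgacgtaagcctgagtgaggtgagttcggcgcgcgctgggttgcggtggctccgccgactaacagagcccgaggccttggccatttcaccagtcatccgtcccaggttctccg
Parp2, chr14:50807666-50807965, plus strand: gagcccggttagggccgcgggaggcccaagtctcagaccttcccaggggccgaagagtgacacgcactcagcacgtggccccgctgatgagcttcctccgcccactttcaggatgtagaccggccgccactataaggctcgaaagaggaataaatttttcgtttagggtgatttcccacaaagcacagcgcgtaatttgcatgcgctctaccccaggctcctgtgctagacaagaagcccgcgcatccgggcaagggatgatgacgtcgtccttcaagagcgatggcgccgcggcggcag
Parp1, chr1:180568641-180568940, plus strand: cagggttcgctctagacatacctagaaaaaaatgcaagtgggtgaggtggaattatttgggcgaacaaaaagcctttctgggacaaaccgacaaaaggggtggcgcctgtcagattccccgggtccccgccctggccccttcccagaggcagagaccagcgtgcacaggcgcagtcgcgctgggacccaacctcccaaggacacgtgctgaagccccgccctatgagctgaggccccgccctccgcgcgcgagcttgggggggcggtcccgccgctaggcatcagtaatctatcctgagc
Topbp1 held 2 overlapping E2F words, TTGGCGC on the strand shown and TTCGCGC on the other. Msh6 held 1 E2F word and 1 CCAAT box, and Blm 1 E2F word and 2 CCAAT boxes. Neither Parp2 nor Parp1 held a match in its window.

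**Figure D3:**
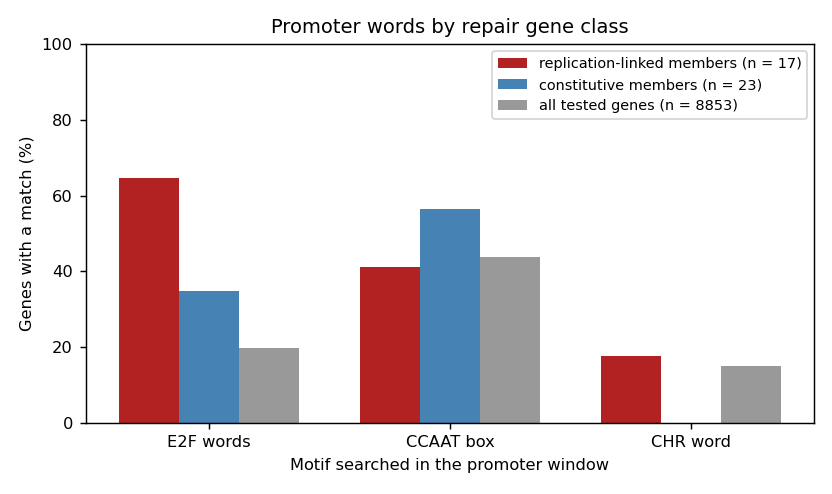
Percentage of genes whose 300-base promoter window holds at least 1 match, for replication-linked members (n = 17), constitutive members (n = 23) and all tested genes with a window (n = 8853). The E2F words were present in 64.7%, 34.8% and 19.8% of them. The replication-linked class was chosen as genes transcribed with S phase, so its E2F share is not independent of that choice.

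Of 10 members of homologous recombination, 9 fell in MAR1INT relative to BaP and 9 relative to MAR1HI. Brca1 (gene 12189, chromosome 11, 101488764 to 101551955, build mm10), a scaffold that promotes the resection of broken ends, stood at 3.03 and 2.08 TPM in MAR1INT, 21.7 and 30.4 in MAR1HI and 20.3 and 21.1 in BaP. Its log2 change was -2.62 against BaP (SE 0.39, adjusted p = 0.00116) and -2.92 against MAR1HI (adjusted p = 0.00144), and the MAR1INT values lay far below the others with no overlap. Brca2, a mediator of strand exchange, stood at 0.822 and 1.16 TPM in MAR1INT, 19.7 and 17.8 in MAR1HI and 27.8 and 12.6 in BaP. Its mean was 20.4-fold lower in MAR1INT than in BaP (log2 change -3.32, adjusted p = 0.000868), and its BaP duplicates differed more from each other than the MAR1HI ones did. Bard1, the obligate partner of BRCA1, stood at 7.28 and 0.998 TPM in MAR1INT, 14.8 and 22.7 in MAR1HI and 12.2 and 13.7 in BaP. It was the only replication-linked member not called against BaP (log2 change -1.78, adjusted p = 0.0553); its MAR1INT duplicates stood far apart, and it was called against MAR1HI (-2.25, adjusted p = 0.0370). Palb2, which bridges BRCA1 and BRCA2, stood at 0 and 1.32 TPM in MAR1INT, 8.05 and 12.9 in MAR1HI and 9.11 and 9.30 in BaP, and fell in both contrasts (adjusted p = 0.00373 against BaP).

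The next genes assist strand exchange. Rad51ap1, an enhancer of strand invasion, stood at 0 and 1.74 TPM in MAR1INT, 13.9 and 16.4 in MAR1HI and 12.6 and 15.3 in BaP. Rad54l, a DNA translocase of the same step, stood at 2.50 and 1.65 TPM in MAR1INT, 11.7 and 21.01 in MAR1HI and 13.8 and 19.5 in BaP. Rad54b, its paralog, stood at 2.35 and 0 TPM in MAR1INT, 18.8 and 23.5 in MAR1HI and 23.3 and 21.2 in BaP. All 3 were lower in both MAR1INT libraries than in the other 4, with log2 changes against BaP of -3.17, -2.52 and -3.66 (adjusted p = 0.00205, 0.00294 and 0.00135). Rad54b shares its position with Fsbp on the same strand, so its level is uncertain to the extent that reads were divided between them. Rad51c, Xrcc2 and Xrcc3, which act together in complexes of this pathway, were low everywhere. Rad51c stood at 0 and 0.520 TPM in MAR1INT, 2.69 and 3.08 in MAR1HI and 2.35 and 2.68 in BaP, with a log2 change of -1.51 against BaP (adjusted p = 0.0220). Xrcc2 was listed at 0 in both MAR1INT libraries, against 1.60 and 4.81 TPM in MAR1HI and 3.52 and 3.65 TPM in BaP (adjusted p = 0.00747 against BaP). Xrcc3 was listed at 0 in both MAR1INT libraries, against 1.73 and 1.09 TPM in MAR1HI and 2.05 and 1.38 TPM in BaP (adjusted p = 0.0220). At levels this close to 1 TPM the log2(TPM + 1) scale understates a change, and no fold is given against a population listed at 0.

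**Figure D4:**
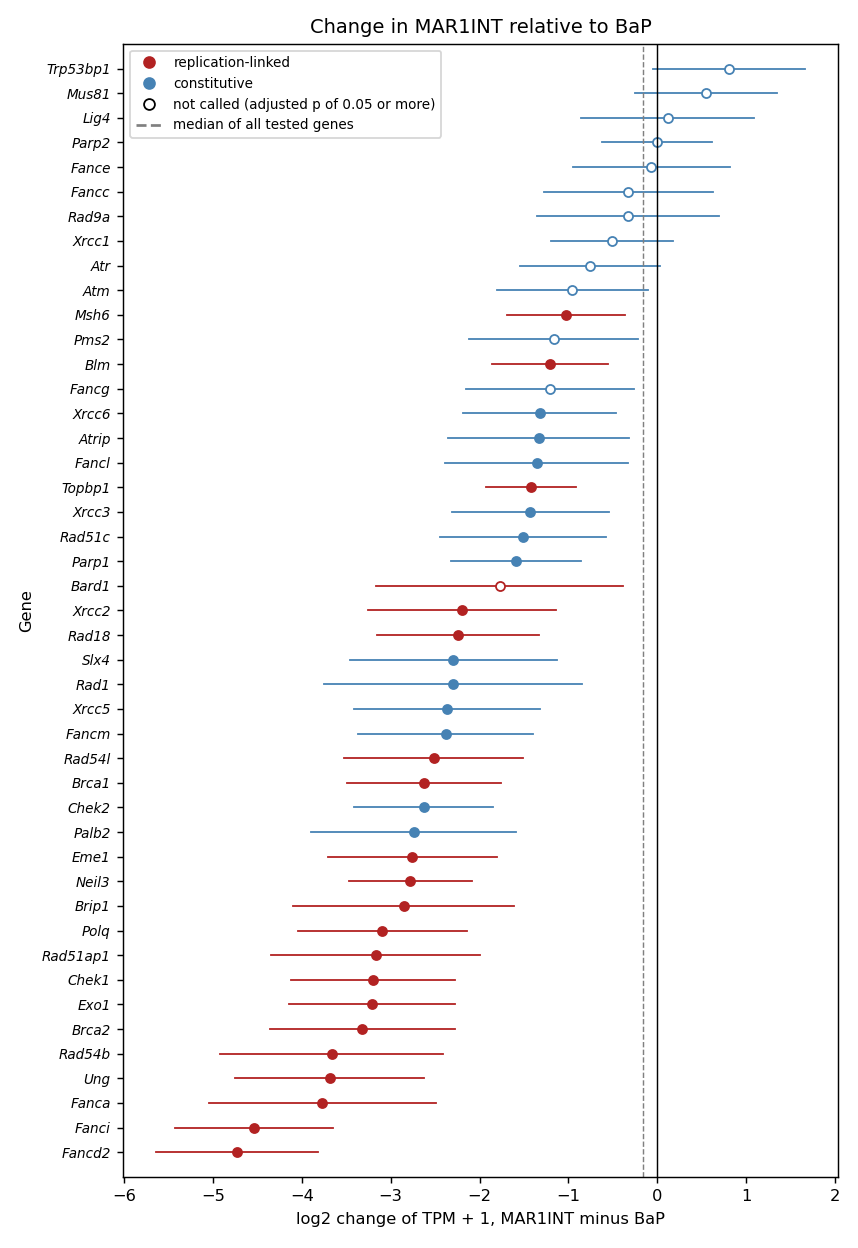
Log2 change of TPM + 1 in MAR1INT minus BaP for the 45 members, ordered from the highest to the lowest, with limma's 95% confidence interval; filled points were called and the dashed line is the median of all tested genes (-0.16). Fancd2 (-4.73) and Fanci (-4.53) are the lowest, and Trp53bp1 (0.81) the highest without a call.

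In the Fanconi anaemia pathway 6 of 9 members fell against BaP, and the same number against MAR1HI. Fancd2 (gene 211651, chromosome 6, 113531682 to 113597020) and Fanci (gene 208836, chromosome 7, 79392338 to 79450264) encode the paired proteins that are ubiquitinated at a crosslink and switch the pathway on. Fancd2 stood at 0.365 and 0 TPM in MAR1INT, 30.8 and 34.04 in MAR1HI and 35.9 and 25.1 in BaP. Fanci stood at 0.922 and 0.209 TPM in MAR1INT, 31.5 and 35.4 in MAR1HI and 35.2 and 33.4 in BaP. They had the lowest log2 changes of the list against BaP, -4.73 (SE 0.41, adjusted p = 9.13e-05) and -4.53 (SE 0.40, adjusted p = 0.000100), with nothing above 1 TPM in MAR1INT. Both passed the filter only through MAR1HI and BaP, so their tests are not independent of it. Fanca, a subunit of the core complex that ubiquitinates them, stood at 2.44 and 0 TPM in MAR1INT, 21.1 and 27.8 in MAR1HI and 22.01 and 26.7 in BaP (log2 change -3.77, adjusted p = 0.00127). Brip1, a helicase that binds BRCA1, stood at 0 and 2.01 TPM in MAR1INT, 14.9 and 22.5 in MAR1HI and 11.2 and 11.9 in BaP (log2 change -2.85, adjusted p = 0.00463), and Fancm, the translocase that anchors the core complex to DNA, stood at 1.56 and 2.57 TPM in MAR1INT, 8.44 and 13.3 in MAR1HI and 16.8 and 13.02 in BaP (log2 change -2.38, adjusted p = 0.00340).

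Of the remaining core subunits, only Fancl was called against BaP. Fancl, the ubiquitin ligase itself, stood at 26.7 and 8.86 TPM in MAR1INT, 41.6 and 41.7 in MAR1HI and 49.8 and 34.3 in BaP, with a log2 change of -1.36 against BaP (adjusted p = 0.0487) and MAR1INT duplicates that differed 3.01-fold. Fancg stood at 5.42 and 3.59 TPM in MAR1INT, 12.3 and 16.1 in MAR1HI and 9.53 and 14.00 in BaP; it was called against MAR1HI (-1.47, adjusted p = 0.0412) and not against BaP (-1.21, adjusted p = 0.0538). Fancc stood at 2.67 and 3.11 TPM in MAR1INT, 3.75 and 4.54 in MAR1HI and 3.08 and 4.81 in BaP, and the values of MAR1INT and BaP overlapped (log2 change -0.33, 95% interval -1.28 to 0.63, adjusted p = 0.594). Fance, which links the core complex to FANCD2, stood at 8.56 and 12.3 TPM in MAR1INT, 7.61 and 8.61 in MAR1HI and 10.1 and 11.6 in BaP, so MAR1INT overlapped both other populations (log2 change -0.07, 95% interval -0.95 to 0.81, adjusted p = 0.909). For Fancc the estimate against BaP turned to 0.46 under quantile scaling, and for Fance to 0.24. For Fance it also turned without 1 library, to 0.022 without BaP replicate 2 and 0.17 without MAR1INT replicate 1; none of these values was called.

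Among the helicases and nucleases that process recombination intermediates, 4 of 5 members fell against BaP. Exo1, the exonuclease that extends resection and also acts in mismatch repair, stood at 0 and 0.316 TPM in MAR1INT, 7.55 and 8.12 in MAR1HI and 10.2 and 9.05 in BaP (log2 change -3.21, adjusted p = 0.000612). Eme1, the regulatory partner of the nuclease MUS81, stood at 0 and 0.265 TPM in MAR1INT, 6.49 and 8.76 in MAR1HI and 5.94 and 7.31 in BaP (log2 change -2.75, adjusted p = 0.00139). Slx4, the scaffold that gathers such nucleases, stood at 0.366 and 1.65 TPM in MAR1INT, 7.58 and 13.2 in MAR1HI and 6.19 and 11.1 in BaP (log2 change -2.30, adjusted p = 0.00946). In these 3 genes each MAR1INT library stood under each MAR1HI and BaP library. Blm, the helicase that dissolves joined chromosomes, kept a higher level: it stood at 17.4 and 21.95 TPM in MAR1INT, 48.1 and 62.8 in MAR1HI and 49.4 and 43.5 in BaP, a mean 2.36-fold lower than in BaP (log2 change -1.20, adjusted p = 0.0127). Mus81 itself stood at 19.95 and 18.6 TPM in MAR1INT, 19.03 and 26.2 in MAR1HI and 10.9 and 15.2 in BaP. Its log2 change was 0.55 against BaP (95% interval -0.25 to 1.35, adjusted p = 0.271), so that the catalytic subunit and its partner Eme1 had changes of unlike sign, of which the one of Eme1 was called.

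Mismatch repair was measured through 2 members with moderate changes. Msh6, which recognises base mismatches, stood at 39.3 and 25.3 TPM in MAR1INT, 54.2 and 56.2 in MAR1HI and 73.4 and 57.8 in BaP; it fell against BaP (log2 change -1.02, adjusted p = 0.0270) and was not called against MAR1HI (-0.79, adjusted p = 0.103). Pms2, the endonuclease subunit, stood at 23.6 and 9.15 TPM in MAR1INT, 28.7 and 36.3 in MAR1HI and 36.4 and 32.4 in BaP, and was called in neither contrast (log2 change -1.16 against BaP, adjusted p = 0.0635). Both genes had MAR1INT values below those of the other populations, without overlap.

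In base excision and strand break repair 3 of 5 members fell against BaP and 2 against MAR1HI. Ung, the glycosylase that removes uracil, was listed at 0 in both MAR1INT libraries, against 2.93 and 4.41 TPM in MAR1HI and 17.1 and 8.15 TPM in BaP; the call against BaP had an adjusted p of 0.000588 and that against MAR1HI 0.0136. Neil3 (gene 234258, chromosome 8, 53586867 to 53639065), a glycosylase that also unhooks crosslinks at replication forks, stood at 4.34 and 4.43 TPM in MAR1INT, 67.4 and 84.8 in MAR1HI and 35.3 and 36.7 in BaP. It was 4.39 ± 0.0660 TPM in MAR1INT, 76.1 ± 12.3 in MAR1HI and 35.97 ± 0.985 in BaP (mean ± SD, n = 2), and fell against BaP (log2 change -2.78, SE 0.31, adjusted p = 0.000298) and against MAR1HI (-3.83, SE 0.31, adjusted p = 0.000150). Parp1, the main sensor of strand breaks, stood at 24.6 and 15.7 TPM in MAR1INT, 29.7 and 31.4 in MAR1HI and 72.9 and 51.5 in BaP. It fell against BaP (log2 change -1.59, adjusted p = 0.00607) and was not called against MAR1HI (-0.61, adjusted p = 0.246). Its related sensor Parp2 (gene 11546, chromosome 14, 50807946 to 50821300) stood at 74.02 and 68.6 TPM in MAR1INT, 59.04 and 85.2 in MAR1HI and 82.7 and 61.9 in BaP, and all 3 populations overlapped: the log2 change against BaP was -0.01 (SE 0.27, 95% interval -0.62 to 0.61). Xrcc1, the scaffold that both PARP enzymes recruit, stood at 28.5 and 20.4 TPM in MAR1INT, 31.9 and 29.6 in MAR1HI and 37.7 and 32.2 in BaP (log2 change -0.51, 95% interval -1.20 to 0.17, adjusted p = 0.229). Leaving out BaP replicate 1 or MAR1INT replicate 2 turned the estimate of Parp2 against BaP to 0.20 and 0.048, without a call.

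In end joining 3 of 5 members fell against BaP and 1, Polq, against MAR1HI, a count near the 14.5% of all tested genes. Polq, the polymerase of the alternative joining route, stood at 1.84 and 1.37 TPM in MAR1INT, 14.5 and 26.2 in MAR1HI and 21.1 and 21.1 in BaP, a mean 13.2-fold lower in MAR1INT than in BaP (log2 change -3.09, adjusted p = 0.000792). Xrcc6, which encodes Ku70, stood at 11.5 and 21.8 TPM in MAR1INT, 26.3 and 29.1 in MAR1HI and 51.5 and 32.8 in BaP (log2 change -1.32, adjusted p = 0.0271). Xrcc5, which encodes its partner Ku80, was far lower in TPM than Xrcc6 in every population: it was listed at 0 in both MAR1INT libraries, against 0.996 and 2.22 TPM in MAR1HI and 6.04 and 2.78 TPM in BaP (adjusted p = 0.00485 against BaP). The proteins act as a pair, and against MAR1HI neither transcript was called (adjusted p = 0.212 and 0.0806). Lig4, the ligase of the pathway, stood at 7.97 and 7.75 TPM in MAR1INT, 10.5 and 21.1 in MAR1HI and 7.07 and 7.29 in BaP, with a log2 change of 0.11 against BaP (95% interval -0.86 to 1.09, adjusted p = 0.864), which turned to -0.089 with FPKM. Trp53bp1 (gene 27223, chromosome 2, 121194835 to 121271407), which protects broken ends from resection and so favours joining over recombination, stood at 22.9 and 18.2 TPM in MAR1INT, 13.4 and 22.9 in MAR1HI and 11.2 and 11.3 in BaP. Both MAR1INT libraries were above both BaP libraries, without a call on TPM (log2 change 0.81, 95% interval -0.05 to 1.66, adjusted p = 0.135), whereas it was called higher under quantile and median-of-ratios scaling. Trp53bp1 overlaps Tubgcp4 on the opposite strand by 3936 bases. In all, 15 members overlap another listed gene, 13 of them on the opposite strand, and whether reads were assigned by strand is not given in the sources used here.

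Of 8 checkpoint genes, 5 fell against BaP and 5 against MAR1HI. Topbp1 (gene 235559, chromosome 9, 103305327 to 103350427), which activates ATR at stalled forks, was the member with the highest TPM in MAR1HI and in BaP and stood at 63.6 and 57.4 TPM in MAR1INT, 121 and 155 in MAR1HI and 168 and 158 in BaP. Its means were 60.5 ± 4.43, 138 ± 23.8 and 163 ± 7.18 TPM in MAR1INT, MAR1HI and BaP (± SD, n = 2), and it fell against BaP (log2 change -1.42, adjusted p = 0.00171) and against MAR1HI (-1.17, adjusted p = 0.00860). Chek1, the effector kinase of ATR, stood at 0.552 and 0.424 TPM in MAR1INT, 9.78 and 12.5 in MAR1HI and 11.8 and 13.6 in BaP, a mean 26.01-fold lower than in BaP (log2 change -3.20, adjusted p = 0.000588). Atr itself stood at 14.7 and 22.7 TPM in MAR1INT, 31.2 and 35.2 in MAR1HI and 39.3 and 25.5 in BaP and was called in neither contrast (log2 change -0.76 against BaP, adjusted p = 0.127). Its partner Atrip stood at 2.05 and 4.83 TPM in MAR1INT, 9.01 and 10.8 in MAR1HI and 9.96 and 9.33 in BaP (log2 change -1.34, adjusted p = 0.0489). The effector thus stood under 1 TPM in both MAR1INT libraries while the kinase that activates it stood at 14.7 and 22.7 TPM.

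In the ATM branch, Chek2 (gene 50883, chromosome 5, 110840017 to 110874133), the effector kinase, stood at 8.89 and 5.30 TPM in MAR1INT, 41.7 and 59.2 in MAR1HI and 44.4 and 51.6 in BaP and had the largest fall among constitutive checkpoint members (log2 change -2.63 against BaP, SE 0.35, adjusted p = 0.000701; -2.68 against MAR1HI, adjusted p = 0.00134). Atm stood at 8.17 and 8.17 TPM in MAR1INT, 16.4 and 27.1 in MAR1HI and 16.2 and 17.4 in BaP; the call against MAR1HI passed (-1.27, adjusted p = 0.0481) and that against BaP did not (-0.96, adjusted p = 0.0823). Of the clamp that is loaded at damaged forks, Rad1 stood at 8.65 and 0.914 TPM in MAR1INT, 22.8 and 25.4 in MAR1HI and 19.1 and 21.2 in BaP, with MAR1INT duplicates that differed 9.46-fold (log2 change -2.30 against BaP, adjusted p = 0.0243). Rad9a, another clamp subunit, stood at 23.6 and 9.83 TPM in MAR1INT, 18.5 and 30.6 in MAR1HI and 17.1 and 22.3 in BaP and overlapped between the populations (log2 change -0.33, 95% interval -1.36 to 0.69); the estimate turned to 0.26 without MAR1INT replicate 2. It overlaps Ppp1ca, a highly expressed gene on the opposite strand, by 222 bases. Rad18, the ligase that marks PCNA for lesion bypass, stood at 2.26 and 3.41 TPM in MAR1INT, 14.9 and 17.7 in MAR1HI and 14.3 and 19.99 in BaP and fell in both contrasts (log2 change -2.24 against BaP, adjusted p = 0.00324).

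Between MAR1HI and BaP the log2 change was below 0.5 in size for 36 of 45 members, and limma called 0. In 9 members both MAR1HI libraries lay below both BaP libraries (15.3% of all tested genes) and in 9 above them (38.2%). The size of change was 0.5 or more in 9 members. Neil3 stood higher in MAR1HI, without a call, at 67.4 and 84.8 TPM, against 35.3 and 36.7 TPM in BaP (log2 change 1.05, SE 0.31, adjusted p = 0.118). Ung stood lower in MAR1HI, without a call, at 2.93 and 4.41 TPM, against 17.1 and 8.15 TPM in BaP (log2 change -1.48, SE 0.47, adjusted p = 0.149). Parp1 likewise stood lower without a call, at 29.7 and 31.4 TPM in MAR1HI, against 72.9 and 51.5 TPM in BaP (log2 change -0.98, SE 0.33, adjusted p = 0.163). In these 3 genes the populations did not overlap. They were the members called when only the libraries of MAR1HI and BaP entered the fit, where 3.03% of all tested genes were called lower and 6.33% higher. The other 6 were Xrcc5 (-1.03), Xrcc6 (-0.56), Lig4 (0.96), Mus81 (0.75), Brip1 (0.63) and Trp53bp1 (0.60), with adjusted p values from 0.292 for Lig4 to 0.603 for Brip1.

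A wider list of 75 other repair genes showed the same direction with a smaller median. Of its 74 tested genes 31 fell and 4 rose in MAR1INT relative to BaP (median -0.89), where 20.4% of all tested genes fell and 11.1% rose. Relative to MAR1HI 25 fell and 1 rose, where 14.5% of all tested genes fell and 2.29% rose, and 1 fell in MAR1HI relative to BaP (0.662% of all). Among the largest falls against BaP were those of Rad51b, which was listed at 0 in both MAR1INT libraries, against 15.7 and 12.6 TPM in MAR1HI and 21.3 and 17.5 TPM in BaP (adjusted p = 0.000152), and of Lig1, the ligase of Okazaki fragments, which stood at 3.85 and 10.1 TPM in MAR1INT, 121 and 119 in MAR1HI and 154 and 135 in BaP (log2 change -4.31, adjusted p = 9.38e-05). The largest rises were in Xpa, which verifies damage in nucleotide excision repair and stood at 39.7 and 27.8 TPM in MAR1INT, 18.3 and 30.3 in MAR1HI and 18.2 and 8.15 in BaP (log2 change 1.37, adjusted p = 0.0408), in Dclre1c, the Artemis nuclease of end joining, which stood at 40.3 and 39.6 TPM in MAR1INT, 22.8 and 31.5 in MAR1HI and 19.6 and 15.7 in BaP (1.14, adjusted p = 0.0221), and in the helicase gene Wrn, which stood at 118 and 80.02 TPM in MAR1INT, 83.6 and 137 in MAR1HI and 47.7 and 50.8 in BaP (0.97, adjusted p = 0.0374). Xpc, the damage sensor of nucleotide excision repair, also rose (0.87, adjusted p = 0.0359). Apex1, the endonuclease of base excision repair, was the gene that fell between MAR1HI and BaP: it stood at 6.13 and 5.88 TPM in MAR1INT, 9.08 and 11.5 in MAR1HI and 58.2 and 38.6 in BaP (-2.11, adjusted p = 0.0237). Tdg, a thymine glycosylase, was the gene that rose against MAR1HI, and it stood at 58.9 and 39.98 TPM in MAR1INT, 8.96 and 5.78 in MAR1HI and 13.1 and 50.8 in BaP (2.59, adjusted p = 0.0140), with BaP duplicates far apart.

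Genes of the cell cycle moved with the repair genes. Of 38 S phase genes 34 fell in MAR1INT relative to BaP (median -2.99) and 31 relative to MAR1HI (median -2.59), and of 31 genes of G2 and mitosis all 31 fell in both contrasts (medians -2.78 and -3.14). Of all tested genes, 20.4% fell against BaP and 14.5% against MAR1HI. Between MAR1HI and BaP limma called 0 genes of either list, where 2.49% of all tested genes were called. An unadjusted limma p under 0.05 was seen there in 0 S phase genes and 2 of G2 and mitosis, and in 1980 of the 11337 tested genes. Summed, the S phase genes stood at 935 and 739 TPM in MAR1INT, 2423 and 2897 in MAR1HI and 2749 and 2663 in BaP, and those of G2 and mitosis at 659 and 516 TPM in MAR1INT, 3784 and 4799.6 in MAR1HI and 3309.98 and 3339.8 in BaP. The part of the cell cycle genes' fall in that of the repair genes was not tested. Of 18 tested targets of p53, the factor that ATM and CHEK2 activate, 7 rose and 3 fell in MAR1INT relative to BaP (median 0.68), where 11.1% of all tested genes rose and 20.4% fell. Relative to MAR1HI 0 rose and 3 fell (median 0.10), a share of 16.7% beside the 14.5% of all tested genes that fell. Ddit4, a stress-induced inhibitor of growth signalling, stood at 27.3 and 22.1 TPM in MAR1INT, 5.96 and 12.1 in MAR1HI and 2.15 and 1.61 in BaP (log2 change 3.16, adjusted p = 0.000967), and Sesn1, a sestrin, stood at 117 and 121 TPM in MAR1INT, 44.6 and 84.5 in MAR1HI and 39.6 and 25.5 in BaP (1.87, adjusted p = 0.00355). Cdkn1a, the cell cycle inhibitor p21, was listed at 0 in both MAR1INT libraries, against 4.66 and 5.03 TPM in MAR1HI and 3.29 and 2.38 TPM in BaP (adjusted p = 0.00628 against BaP), and Fas, a death receptor, was listed at 0 in both MAR1INT libraries, against 11.3 and 11.1 TPM in MAR1HI and 1.65 and 6.41 TPM in BaP (adjusted p = 0.0138). Polk, Ddb2, Xpc and Mdm2 stand on both the p53 and the wider repair list.

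**Figure D5:**
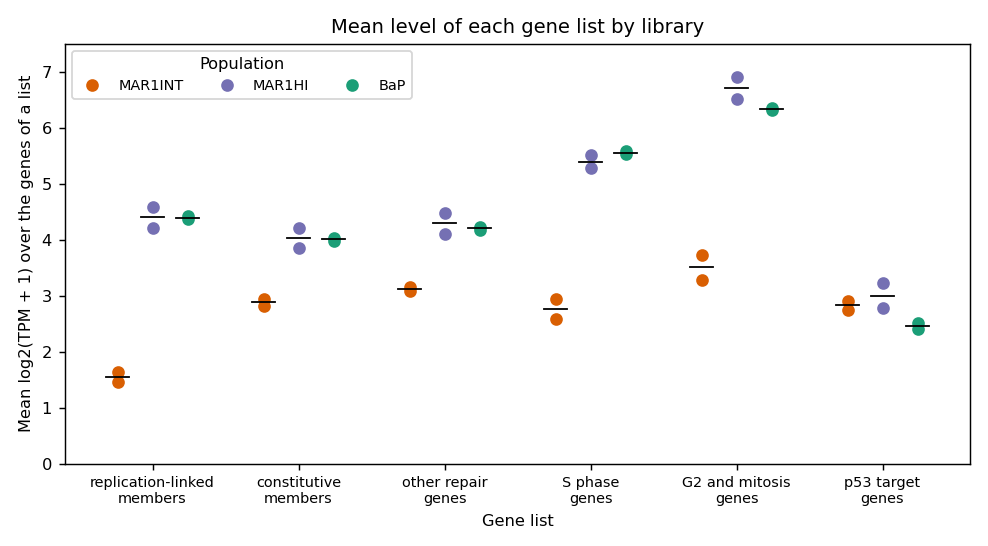
Mean log2(TPM + 1) over the genes of each list in each library, 1 point per library, with a bar at the mean of the 2 duplicates. The points of MAR1INT lie below those of MAR1HI and BaP for both member classes, the other repair genes and both cell cycle lists; replication-linked members stand at 1.64 and 1.46 in MAR1INT, 4.21 and 4.59 in MAR1HI and 4.42 and 4.37 in BaP.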

How the data were processed

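RNA was sequenced from 6 libraries, 2 in each of 3 sorted populations, prepared per the labels with TRIzol LS and a capture kit. The steps named per the submitters' processing notes are Trimmomatic, HISAT2 and StringTie on build mm10; versions, options and annotation release are not given in the sources used here. Coverage (a signal, mean depth per base), FPKM and TPM are given for each gene in the deposited tables. The authors' TPM sums to 1000000 in every library. Capture and per-library scaling make the values relative, and with no counts no counting interval could be given.

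Parts of 1 gene ID were summed, and 24462 of 24532 IDs matched a GRCm38.p6 symbol. Genes with 1 TPM or more in at least 2 libraries were fitted as log2(TPM + 1) with limma 3.58.1 (R 4.3.3), 1 term per population, an eBayes trend, 3 residual degrees of freedom (prior, median: 6.39) and Benjamini-Hochberg adjustment over 11337 genes; a call is an adjusted p under 0.05. P-values set a difference against the spread between duplicates, pooled over the 3 populations and moderated toward that of all genes. The fit took this spread as equal in the populations. Over tested genes its root mean square SD (log2) was 0.668 in MAR1INT, 0.427 in MAR1HI and 0.423 in BaP, and its median SD 0.250, 0.311 and 0.188. An exact permutation test of 2 against 2 cannot go below 0.333. The fit was tested on simulated data. Members, classes and lists were chosen with earlier results of these data known. The rule for named genes took, per role, the called members with the 2 largest changes in MAR1INT minus BaP, members called higher, up to 2 further members called in another contrast and the member with the smallest change; the remaining members were added after their values were seen. Of other lists it took the 3 (repair) or 2 (p53) called genes largest in each direction; Xpc, Apex1 and Tdg were added after their values were seen. One gene that the rule took from the wider repair list is not reported here. Alternatives were pseudocount 0.1, FPKM, quantile and median-of-ratios scaling, other filters, only the compared groups, a replicate block, no trend and each library left out. Tables and figures came from Python 3.11.15 with numpy 2.4.6, pandas 2.3.3 and matplotlib 3.10.9.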

Additional observations from a re-analysis of the deposited data

How the results depend on the processing

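Under every alternative tried the class medians stayed below 0 in MAR1INT relative to BaP and to MAR1HI, while the number of members called varied. Against BaP, between 25 and 37 members were called lower when all libraries were used, and between 21 and 32 with 1 library left out. Against MAR1HI 13 were called lower with no filter on low values, where 2.75% of all tested genes were. With 1 library left out, the counts of members and of all tested genes called also varied. Members called higher against BaP numbered 1 (Trp53bp1) under quantile scaling and 1 under median-of-ratios scaling, where 20.3% and 15.9% of all tested genes were called higher. Between MAR1HI and BaP, 2 members (Parp1 and Ung) were called lower and 1 (Neil3) higher with only these groups in the fit. Of all tested genes, 3.03% were then called lower and 6.33% higher. Without a MAR1INT library limma's prior degrees of freedom became infinite, so 1 fully pooled spread was used there. Deviations of libraries with the same duplicate number correlated at 0.154 (BaP and MAR1HI), -0.092 (BaP and MAR1INT) and -0.059 (MAR1HI and MAR1INT). With 2 libraries in a population these values cannot show whether the duplicates were paired. A replicate block called 31 members lower against BaP, 27 against MAR1HI and 0 in MAR1HI relative to BaP. Of all tested genes, 19.9%, 13.7% and 0.573% were then called lower.

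The median of replication-linked members against BaP was -4.45 with pseudocount 0.1, -2.65 with FPKM, -2.38 after quantile normalization and -3.09 at a mean TPM of 5 or more, and -2.88 to -2.80 with 1 library left out. Against MAR1HI it was -4.25, -2.42 and -1.94 under the first 3 of these, -2.73 with median-of-ratios scaling, and -3.15 to -2.74 with 1 library left out. Between MAR1HI and BaP it was -0.25 with FPKM, -0.34 after quantile normalization, -0.33 with median-of-ratios scaling, and -0.17 to 0.19 with 1 library left out. For constitutive members against BaP it was -0.73 after quantile normalization and -1.31 to -1.01 with 1 library left out. Against MAR1HI it was -0.83 with FPKM, -0.40 after quantile normalization, -0.89 with median-of-ratios scaling, -0.96 at a mean TPM of 5 or more, -0.96 without genes listed at 0 in a population (a choice made after seeing the data), -0.85 with Chek2, Fancm and Palb2 counted as replication-linked (likewise), and -1.28 to -0.92 with 1 library left out. Between MAR1HI and BaP it was -0.15, -0.14 and -0.23 under FPKM, quantile and median-of-ratios scaling, and -0.08 to 0.20 with 1 library left out. Without the 4 members at 0 in MAR1INT the median of all members against BaP was -1.78.

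Changes of sign were seen only in members without a call. Against BaP they were Fancc (0.46) and Fance (0.24) after quantile normalization, Lig4 (-0.089) with FPKM, and with 1 library left out Fance (-0.31 to 0.17), Parp2 (-0.21 to 0.20) and Rad9a (-0.92 to 0.26). Against MAR1HI they were Fancc (0.42) and Mus81 (0.19) after quantile normalization, Mus81 (0.076) with median-of-ratios scaling, Parp2 (-0.0060) with FPKM, and with 1 library left out Mus81 (-0.43 to 0.017), Parp2 (-0.26 to 0.27) and Trp53bp1 (-0.16 to 0.58). The cause was not tested. Over all tested genes the median change against BaP was -0.32 with FPKM, 0.11 under quantile scaling and -0.17 under median-of-ratios scaling. Against BaP 2311 genes were called lower and 1263 higher on TPM, and 1877 and 2302 under quantile scaling. Against MAR1HI 1640 were lower and 260 higher on TPM, 948 and 786 under quantile scaling, and 1224 and 806 under median-of-ratios scaling. With no filter on low values they were 511 and 51. Depth per gene is unknown in these tables, so levels near 1 TPM have no counting interval.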
